A study of Mus musculus with 36 samples.

Results

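The Period genes, the PAR bZIP transcription factors and 4 further genes of the negative limb of the circadian clock were examined in heart, kidney and liver of young male mice. The 10 genes (*Per1*, *Per2*, *Per3*, *Cry2*, *Dbp*, *Tef*, *Hlf*, *Ciart*, *Bhlhe40* and *Bhlhe41*) were taken by name, matched to their Ensembl identifiers, and make up 10 of the 78239 gene features counted. The 36 RNA-seq libraries came from male C57BL/6NCrl mice, 4 from each organ at each of 3 ages (8 weeks, 10 weeks and 12 weeks). The labels give no genotype or treatment beyond strain and age, and all animals were kept under a light/dark cycle and anaesthetised with ketamine and xylazine before collection. The study asked which transcripts change as mice pass from late adolescence to young adulthood. The hour of the day at which tissue was taken is not given in the sources used here, so it cannot be told apart from age or from the individual library.

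Within an age, the heart, kidney and liver libraries carry the same replicate numbers, which match the numbers of the libraries themselves. The labels call them biological replicates but do not say that equal numbers in different tissues stand for the same animal, and they are treated below only as libraries that share a number.

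Clock transcription runs as a delayed feedback loop. BMAL1 and CLOCK bind E-boxes and switch on the *Per* and *Cry* genes, whose proteins enter the nucleus and repress that activation, while REV-ERB proteins (*Nr1d1*, *Nr1d2*) repress *Bmal1*. DBP, TEF and HLF are PAR bZIP activators that bind D-boxes and carry the rhythm to enzymes and transporters in liver, kidney and heart, and NFIL3 represses the same sites. CIART, also called CHRONO, and the basic helix-loop-helix repressors DEC1 (*Bhlhe40*) and DEC2 (*Bhlhe41*) add further repression at E-boxes. *Per1* and *Per2* also respond directly to glucocorticoid hormone and to acute signals. Each library gives the loop at 1 moment only.

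The libraries held between 21031599 and 33637390 counted read pairs. Defining markers of each organ were high where they belonged: the summed level of *Myh6*, *Tnnt2*, *Actc1*, *Myl2* and *Nppa* was at least 40200 CPM (counts per 1000000 counted pairs) in heart and at most 1.83 CPM elsewhere, and *Umod*, *Slc34a1*, *Aqp2*, *Nphs1* and *Kap* together reached at least 23030 CPM in kidney and at most 5.91 CPM elsewhere. The sum of 5 liver markers was at least 74830 CPM in liver. It was 1719 to 2758 CPM in kidney, most of it from *Cyp2e1*, an enzyme that proximal tubules also express. In heart the sum was 0.117 to 0.536 CPM at 8 weeks, 1.32 to 23.9 CPM at 10 weeks and 0.638 to 3.72 CPM at 12 weeks. Of these 5 genes 2 were called higher in heart at 10 than at 8 weeks (edgeR adjusted p under 0.05), where 1.06% of all genes were called. The source of this RNA in heart libraries was not tested.

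Promoters are shown first because E-boxes and D-boxes are the sites through which the loop acts on these genes. RefSeq windows of 250 bases before the transcription start, on GRCm38.p6, were at hand for 8 of the 10 genes (not for *Per2* and *Bhlhe40*), and 4 motifs were searched on both strands: the E-box CACGTG, the related CACGTT, the D-box as TTATGTAA or TTACGTAA, and the cAMP response element TGACGTCA. Capitals mark the motifs found. *Ciart* (chr3:95882229-95882478, minus strand) held 3 E-boxes, at 116, 58 and 44 bases before the start, *Per1* (chr11:69098699-69098948, plus strand, the first of its listed starts) held 1 at 166, and *Per3* (chr4:151044666-151044915, minus strand) held 2 D-boxes at 205 and 158. *Dbp* (chr7:45704997-45705246, plus strand) is set beside them as a window without any of these letters.
Ciart: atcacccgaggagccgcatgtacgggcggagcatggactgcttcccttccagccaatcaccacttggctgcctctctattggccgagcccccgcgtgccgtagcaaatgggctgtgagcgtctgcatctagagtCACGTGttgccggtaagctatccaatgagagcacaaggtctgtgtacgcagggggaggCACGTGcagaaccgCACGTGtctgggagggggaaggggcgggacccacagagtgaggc
Per1: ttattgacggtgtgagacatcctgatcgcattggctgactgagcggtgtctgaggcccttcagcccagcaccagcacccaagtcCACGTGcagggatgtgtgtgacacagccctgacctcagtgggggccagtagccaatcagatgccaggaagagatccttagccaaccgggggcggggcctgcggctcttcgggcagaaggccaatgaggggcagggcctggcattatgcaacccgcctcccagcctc
Per3: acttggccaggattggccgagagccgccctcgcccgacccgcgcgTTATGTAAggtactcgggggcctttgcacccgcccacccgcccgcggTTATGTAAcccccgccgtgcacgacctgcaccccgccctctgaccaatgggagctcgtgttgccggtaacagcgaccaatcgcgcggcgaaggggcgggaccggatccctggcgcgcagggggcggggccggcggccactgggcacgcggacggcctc
Dbp: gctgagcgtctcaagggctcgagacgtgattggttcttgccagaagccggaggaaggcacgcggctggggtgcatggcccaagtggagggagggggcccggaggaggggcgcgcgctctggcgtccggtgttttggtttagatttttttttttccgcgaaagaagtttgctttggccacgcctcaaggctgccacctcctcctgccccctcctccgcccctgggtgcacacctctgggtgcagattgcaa

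The E-box also stood in the windows of *Tef* (127 bases before a listed start and 138 before another) and *Bhlhe41* (153), CACGTT in that of *Cry2* (166) and the cAMP response element next to the start of *Hlf* (9). Of all 27025 genes with a window, 8.09% held CACGTG, 5.44% CACGTT, 1.23% a D-box and 2.03% the cAMP response element. These shares were counted over the whole listed windows, which ran on past the transcription start. Over the 250 bases before the start alone they would be no higher. A match is a description of the letters in a window, and a window without one says nothing of sites elsewhere in the gene.

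The first comparison asked whether heart, kidney and liver libraries that share a number stood high or low together, within an age. They did so for *Per1*, *Per2*, *Dbp* and *Ciart*, which passed an edgeR quasi-likelihood test of the 9 number terms, adjusted over 12537 genes: adjusted p = 0.000300 for *Per1*, 0.00161 for *Per2*, 0.00254 for *Ciart* and 0.0210 for *Dbp*. Of all genes tested, 0.917% passed (115 of 12537), against 4 of the 10 clock genes. At an unadjusted p under 0.05 the counts were 9 of 10 and 10.7% of all genes. The 6 others had adjusted p-values from 0.110 (*Bhlhe41*) to 0.624 (*Bhlhe40*). Without the heart, kidney and liver libraries of replicate 1 at 10 weeks 2 clock genes passed, *Per1* at an adjusted p of 0.000307 and *Per2* at 0.00430. With liver and heart alone, or liver and kidney alone, 1 passed.

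*Per1* encodes a repressor of CLOCK and BMAL1. In heart it was at 98.2, 123, 112.5 and 112.8 CPM in replicates 1 to 4 at 8 weeks, at 45.8, 111, 54.9 and 70.5 CPM at 10 weeks, and at 58.9, 69.1, 75.6 and 87.1 CPM at 12 weeks. In kidney the values were 78.6, 107, 94.7 and 90.8 CPM, then 45.2, 79.0, 40.3 and 63.5 CPM, then 71.9, 42.04, 62.5 and 70.2 CPM. In liver they were 68.5, 81.7, 74.8 and 62.2 CPM, then 50.3, 67.9, 36.7 and 54.9 CPM, then 58.2, 38.1, 57.5 and 57.5 CPM. Replicate 2 was the highest library of its age in all 3 tissues at 8 weeks and again at 10 weeks. At 12 weeks it was the lowest in kidney and liver but not in heart. All 3 tissues deviated to the same side of their age mean at 10 of the 12 numbers, where the median gene did so at 3 of 12. For *Per2*, *Dbp* and *Bhlhe41* the counts were 9, 8 and 7, for *Hlf*, *Ciart*, *Per3* and *Tef* 6, 5, 4 and 3, and for *Cry2* and *Bhlhe40* 2 and 1; 5.38% of all genes reached 7 or more.

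*Per2*, the second Period repressor, was at 21.2, 43.7, 46.2 and 46.9 CPM in heart at 8 weeks, at 13.5, 40.4, 18.5 and 18.3 CPM at 10 weeks and at 23.9, 26.6, 24.7 and 36.4 CPM at 12 weeks. In kidney it was at 59.8, 82.9, 90.1 and 94.5 CPM, then 29.7, 75.8, 41.7 and 49.7 CPM, then 57.7, 42.3, 46.0 and 65.1 CPM. In liver it was at 41.1, 50.6, 51.4 and 36.6 CPM, then 31.4, 42.1, 33.3 and 33.0 CPM, then 30.8, 32.2, 29.3 and 44.3 CPM. The highest library at 10 weeks was replicate 2 in each tissue and the highest at 12 weeks was replicate 4 in each tissue.

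**Figure D1:**
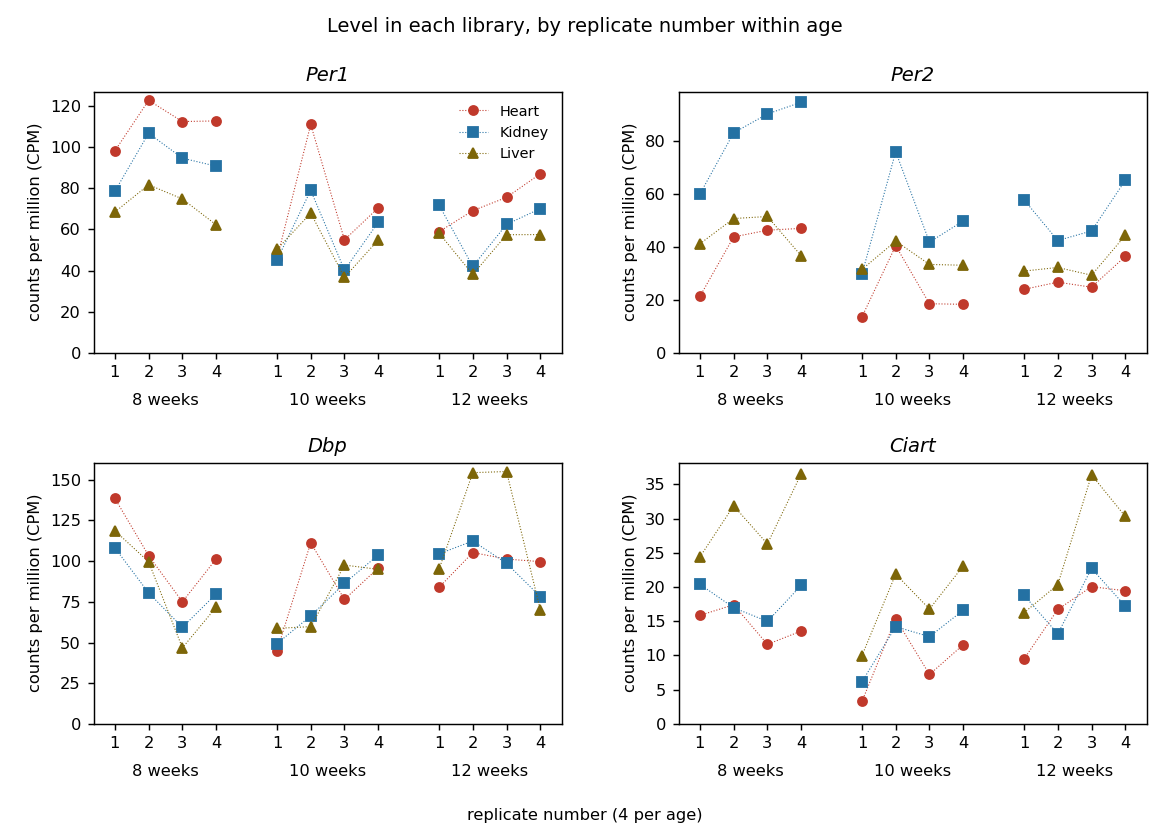
Level of *Per1*, *Per2*, *Dbp* and *Ciart* in CPM (y axis, from 0) in each of the 36 libraries, placed by age and replicate number (x axis), with circles for heart, squares for kidney and triangles for liver; dotted lines join libraries of 1 tissue and age only to guide the eye, since replicates have no order. Among the 10-week libraries *Per1* was highest in replicate 2 in all 3 tissues (111, 79.0 and 67.9 CPM), and *Ciart* was lowest in replicate 1 at 10 weeks in all 3 (3.27, 6.15 and 9.96 CPM).

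*Dbp*, the PAR bZIP activator, followed another order. Its heart levels at 8 weeks were 139, 103, 75.0 and 101.4 CPM, at 10 weeks 44.8, 111, 76.5 and 95.8 CPM and at 12 weeks 83.9, 105, 101.3 and 99.7 CPM. Kidney gave 108, 80.5, 59.4 and 79.9 CPM, then 49.3, 66.3, 86.4 and 104 CPM, then 104, 112, 98.7 and 78.2 CPM. Liver gave 119, 99.6, 46.7 and 71.8 CPM, then 58.7, 59.8, 97.6 and 95.0 CPM, then 95.0, 154, 155 and 70.1 CPM. At 8 weeks replicate 1 was highest and replicate 3 lowest in all 3 tissues. *Per1* and *Per2* did not share that order in heart and kidney, where replicate 1 was their lowest 8-week library. *Per3* had its highest 8-week kidney library in replicate 1 (54.2 CPM) and its lowest 8-week liver library in replicate 3 (23.4 CPM), and its lowest in heart was replicate 1 (30.5 CPM).

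*Ciart*, the CHRONO repressor whose window held 3 E-boxes, was at 15.8, 17.4, 11.6 and 13.6 CPM in heart at 8 weeks, at 3.27, 15.4, 7.21 and 11.6 CPM at 10 weeks and at 9.47, 16.7, 20.04 and 19.4 CPM at 12 weeks. The kidney values were 20.4, 16.97, 14.97 and 20.2 CPM, then 6.15, 14.2, 12.7 and 16.6 CPM, then 18.8, 13.2, 22.7 and 17.2 CPM. The liver values were 24.4, 31.9, 26.3 and 36.5 CPM, then 9.96, 21.9, 16.8 and 23.1 CPM, then 16.2, 20.3, 36.4 and 30.3 CPM. Replicate 1 at 10 weeks was the lowest of the 12 libraries in every tissue.

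That library number was low for most of the clock genes. The share of all genes below their age mean in its heart, kidney and liver libraries was not counted. Of the 10 genes, 8 were below their age mean in heart, kidney and liver of 10-week replicate 1 (*Bhlhe40* was above it in liver and *Bhlhe41* in kidney), with a median deviation of -0.38 on the log2 scale. In the same libraries *Bmal1*, whose protein activates the loop, was at 10.1, 9.04 and 7.20 CPM in heart, kidney and liver, against medians of 1.77, 1.75 and 1.39 CPM over all libraries of each tissue. *Bmal1* was also high in 10-week replicate 3, at 3.95, 4.19 and 7.75 CPM. In 10-week replicate 4, 6 of the 10 genes were above the age mean in all 3 tissues and none was below in all 3, and in 10-week replicate 2, 4 were above. Deviations from an age mean sum to 0, so low values in replicate 1 raise those of the other replicates.

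**Figure D2:**
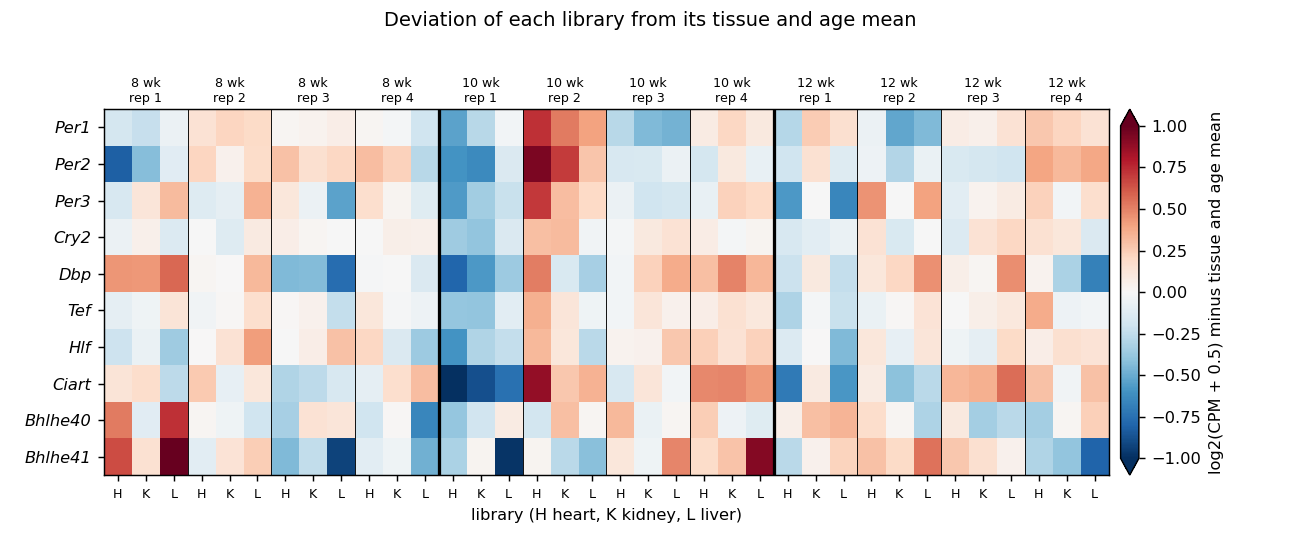
Deviation of log2(CPM + 0.5) from the mean of its tissue and age (colour, red above and blue below, colour scale ending at -1 and 1) for the 10 genes (rows) in the 36 libraries (columns, 3 tissues side by side for each number). The block of 10-week replicate 1 is blue in nearly every row, with a median deviation of -0.38.

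Correlations of these deviations over the 12 numbers were positive for most genes. *Per1* had r = 0.92 between kidney and liver (Spearman rho 0.94, exact permutation within ages, p = 0.00137, adjusted p = 0.376 over 13660 genes, n = 12). *Per2* had r = 0.89 between heart and kidney (rho 0.79, exact permutation p = 0.00405, adjusted p = 0.4998 over 13928 genes, n = 12). *Ciart* had r = 0.83 and *Bhlhe41* r = 0.82 between heart and liver (rho 0.82 and 0.83, exact permutation p = 0.00456 and 0.00159, adjusted p = 0.538 and 0.459 over 12691 genes, n = 12), and *Dbp* r = 0.81 between kidney and liver (rho 0.82, exact permutation p = 0.00239, adjusted p = 0.460, n = 12). Without the 2 numbers farthest from the median these 5 values were 0.83, 0.81, 0.58, 0.68 and 0.87. No gene of the whole table passed the adjusted threshold in any pair of tissues (percent called 0; unadjusted permutation p under 0.05 for 996, 802 and 1101 genes in heart-kidney, heart-liver and kidney-liver, or 7.15%, 6.32% and 8.06%, and for 1, 3 and 4 of the clock genes), and the smallest p the 13824 permutations allow is 7.234e-05. The clock genes had r above 0.5 in 9, 4 and 5 of 10 cases, against 12.8%, 9.16% and 15.6% of all genes. Their median r was 0.65, 0.48 and 0.53, against 0.10, 0.02 and 0.15 for all genes. The heart-kidney r of *Cry2* (0.66) and *Hlf* (0.64) rested on the 2 farthest numbers and was -0.13 and 0.15 without them. That of *Tef* (0.56) was 0.55 without its 2 farthest numbers, but -0.23 without 10-week replicate 1 alone. Within single ages there are 4 numbers, too few for a value.

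Within a tissue the genes did not all move together. *Per1* and *Per2* deviated together (r = 0.84, 0.80 and 0.47 over the 12 libraries of heart, kidney and liver), while *Per1* and *Dbp* did so in heart (0.64) but not in kidney (-0.16) or liver (-0.40). *Bhlhe41*, which encodes DEC2, followed *Dbp* in each tissue (0.71, 0.67 and 0.87). *Tef* had r = 0.61, 0.58 and 0.84 with *Dbp*, but in heart its r with *Per1* (0.88), *Cry2* (0.85), *Per3* (0.82) and *Per2* (0.77) was higher. *Per3* went with *Tef* in each tissue (0.82, 0.66 and 0.89), and its r with *Dbp* was 0.575, 0.491 and 0.555. With *Per1* it went in heart (0.80) and kidney (0.57) but not in liver (-0.02). For *Bhlhe40*, encoding DEC1, and *Dbp* the values were 0.57, -0.09 and -0.12. These values are descriptions over libraries that share depth and scaling.

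A ratio of 2 genes in the same library needs no scaling, and the ratio of *Dbp* to *Per2* counts, chosen after their values were seen, also moved with the numbers. In heart it was 6.52, 2.37, 1.62 and 2.16 at 8 weeks, in kidney 1.81, 0.970, 0.659 and 0.845 and in liver 2.89, 1.97, 0.909 and 1.96, so that replicate 1 was highest and replicate 3 lowest in all 3 tissues. At 10 weeks replicate 2 was lowest in all 3 (2.76, 0.875 and 1.42), and at 12 weeks replicate 4 was lowest in all 3 (2.74, 1.20 and 1.58). The log2 ratio, less its age mean, had r = 0.88 between heart and kidney, 0.77 between heart and liver and 0.89 between kidney and liver (12 numbers, given without a test).

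**Figure D3:**
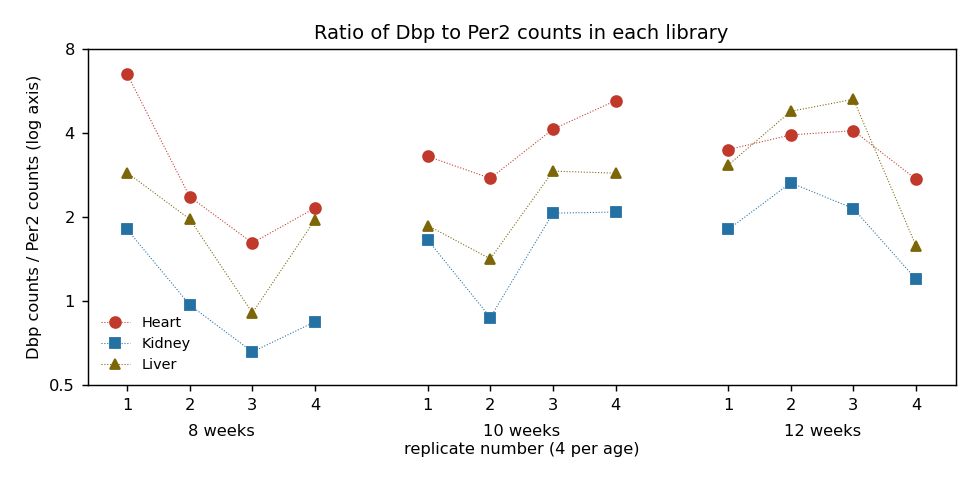
Ratio of *Dbp* to *Per2* counts (y axis, log scale) in each library by age and replicate number (x axis), with circles for heart, squares for kidney and triangles for liver; dotted lines only guide the eye. At 8 weeks replicate 1 is highest and replicate 3 lowest in each tissue, from 6.52 to 1.62 in heart, 1.81 to 0.659 in kidney and 2.89 to 0.909 in liver.

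Other genes of the pathway were read from lists of clock partners and clock outputs. Of the clock partners *Bmal1* (adjusted p = 0.00477), *Nr1d1* (0.000147) and *Cry1* (0.0279) passed for a shared number. *Nr1d1*, encoding REV-ERB alpha, ranged in liver from 18.6 CPM (12-week replicate 4) to 128 CPM (12-week replicate 1), and 12-week replicate 4 was also its lowest 12-week library in heart (56.1 CPM) and kidney (38.2 CPM). Of 7 clock outputs 4 passed: *Wee1*, a cell cycle kinase (0.00161), *Noct*, a circadian phosphatase (0.0122), *Usp2*, a ubiquitin protease (0.0128), and *Nampt*, an enzyme of NAD synthesis (0.0352). None of the 11 organ and cell type markers tested passed, and 3 had an unadjusted p under 0.05.

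Genes that respond to glucocorticoid hormone and immediate early genes moved with the numbers too. *Fkbp5*, a glucocorticoid-induced chaperone, had the strongest call of all these lists (adjusted p = 3.2e-08); at 10 weeks it was at 33.8, 104, 69.0 and 49.9 CPM in heart, 123, 382, 220 and 179 CPM in kidney and 93.9, 317, 162 and 161 CPM in liver. Replicate 2 was highest and replicate 1 lowest in all 3 tissues, the same libraries that were highest and lowest for *Per2*. Of 6 tested glucocorticoid-induced genes 3 passed (*Fkbp5*, *Zbtb16* and *Ddit4*), and of 7 immediate early genes 2 passed (*Fosb* and *Nr4a1*). The summed level of the glucocorticoid list ranged from 410.4 to 848 CPM in heart, 281 to 1053 CPM in kidney and 273 to 729 CPM in liver, and its part in the *Per* values was not tested.

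Ranked by correlation with the 10 clock genes themselves left out, the genes whose deviations over all 36 libraries were most like those of *Dbp* were *Dedd2* (r = 0.86), *Vps35l* (0.77), *Tbc1d17* (0.75), *Plekha6* (0.75) and *Ubtf* (0.72), and the most opposed were *Trmt61a* (-0.72) and *Rrp12* (-0.69). Among the clock genes, *Bhlhe41* had r = 0.77 with *Dbp* and *Per2* r = 0.74 with *Per1*. For *Per1* the leading genes were *Noct* (0.76), *Gm33228* (0.75), *Cebpd* (0.71), *Slc10a6* (0.69) and *Gm45819* (0.69), and the most opposed was *Bmal1* (-0.65; -0.91 in heart, -0.45 in kidney and -0.52 in liver). These r are over 12537 genes tested against 2 clock genes and are given without a test.

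Spread between libraries of the same tissue and age differed among the genes. *Ciart* in heart had a residual SD of 0.61 on the log2 scale, above 99.5% of genes, and *Per2* in heart 0.52, above 99%. *Bhlhe41* in liver reached 0.80, at 0.713 to 8.38 CPM. *Cry2*, by contrast, had SDs of 0.19, 0.20 and 0.13 in heart, kidney and liver, and *Tef* in kidney and liver 0.16 and 0.15, while the median gene had 0.17, 0.16 and 0.22. Among the 1000 genes nearest in level, *Cry2* stood above 89.5%, 92.6% and 30.9% in the 3 tissues and *Tef* above 82.6% in kidney and 51.7% in liver.

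The second comparison asked whether the levels differed between ages within a tissue. None of the 10 genes passed the adjusted threshold in any of the 9 comparisons by edgeR. At an unadjusted p under 0.05 heart gave 7, 2 and 4 of the 10 for 10 against 8, 12 against 8 and 12 against 10 weeks, kidney 6, 2 and 4 and liver 5, 3 and 3. At the same unadjusted threshold stood 15.8%, 23.4% and 11.7% of all genes in heart, 16.5%, 11.7% and 16.4% of those of kidney and 14.3%, 15.1% and 14.1% of those of liver. Past the adjusted threshold were 1.06%, 4.56% and 0.0396% of all genes in the heart fit, 0.929%, 0.0567% and 0.482% in that of kidney and 0.0204%, 0.239% and 0.0545% in that of liver. By DESeq2, 1 gene passed in each of 5 comparisons: *Cry2* (10 against 8 weeks) and *Bhlhe40* (12 against 8) in heart, *Hlf* (10 against 8) and *Tef* (12 against 10) in kidney and *Tef* (12 against 10) in liver. By limma-voom none passed in any of the 9.

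The estimates for 10 against 8 weeks were below 0 in 9 of 10 genes in each tissue. Their medians were -0.41, -0.29 and -0.26 on the log2 scale in heart, kidney and liver. For 12 against 10 weeks 10, 9 and 9 estimates were above 0, with medians of 0.30, 0.23 and 0.30. Both comparisons share the 10-week libraries, among them replicate 1. The shares of all genes below or above 0 were not counted. The 10 genes moved together in part, so neither they nor the 3 tissues count as independent. *Cry2* in heart at 10 against 8 weeks (log2 fold change -0.42 ± 0.11 SE, adjusted p = 0.0852) was the only gene of the 10 in heart without overlap between those ages, at 29.4 to 46.6 CPM against 48.8 to 53.4 CPM; 4.74% of all genes were lower without overlap there. *Tef* and *Hlf* did not overlap in kidney, *Tef* at 324 to 474 CPM against 489 to 518 CPM and *Hlf* at 133 to 181 CPM against 188 to 229 CPM (log2 fold changes -0.24 ± 0.10 and -0.35 ± 0.10 SE, adjusted p = 0.244 and 0.107; background 3.43%), and both were higher without overlap at 12 than at 10 weeks, where 3.14% of all genes were. *Ciart* did not overlap in liver, at 9.96 to 23.1 CPM against 24.4 to 36.5 CPM (-0.79 ± 0.29 SE, adjusted p = 0.245; background 3.22%).

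Between 12 and 8 weeks *Per1* was the only one of the 10 genes whose groups did not overlap, and it was the lower group at 12 weeks in each tissue. Heart libraries were at 58.9 to 87.1 CPM against 98.2 to 123 CPM, kidney libraries at 42.04 to 71.9 against 78.6 to 107 CPM, and liver libraries at 38.1 to 58.2 against 62.2 to 81.7 CPM. The log2 fold changes were -0.65 ± 0.19 SE (adjusted p = 0.0623), -0.57 ± 0.20 SE (adjusted p = 0.323) and -0.41 ± 0.18 SE (adjusted p = 0.318). Of all genes, 4.76%, 4.10% and 3.95% were lower without overlap in heart, kidney and liver. In heart *Per1* passed when only these 2 ages were fitted (adjusted p = 0.00789). *Bhlhe40* in heart went the other way (0.50 ± 0.16 SE, adjusted p = 0.0828), from 59.0, 41.6, 32.5 and 35.6 CPM at 8 weeks to 62.9, 68.0, 64.5 and 47.6 CPM at 12 weeks, with overlap through 8-week replicate 1. *Bhlhe41* in liver was at 4.68, 2.23, 0.713 and 1.15 CPM at 8 weeks and 6.61, 8.38, 5.79 and 3.00 CPM at 12 weeks (1.47 ± 0.54 SE, adjusted p = 0.238), again with overlap.

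**Figure D4:**
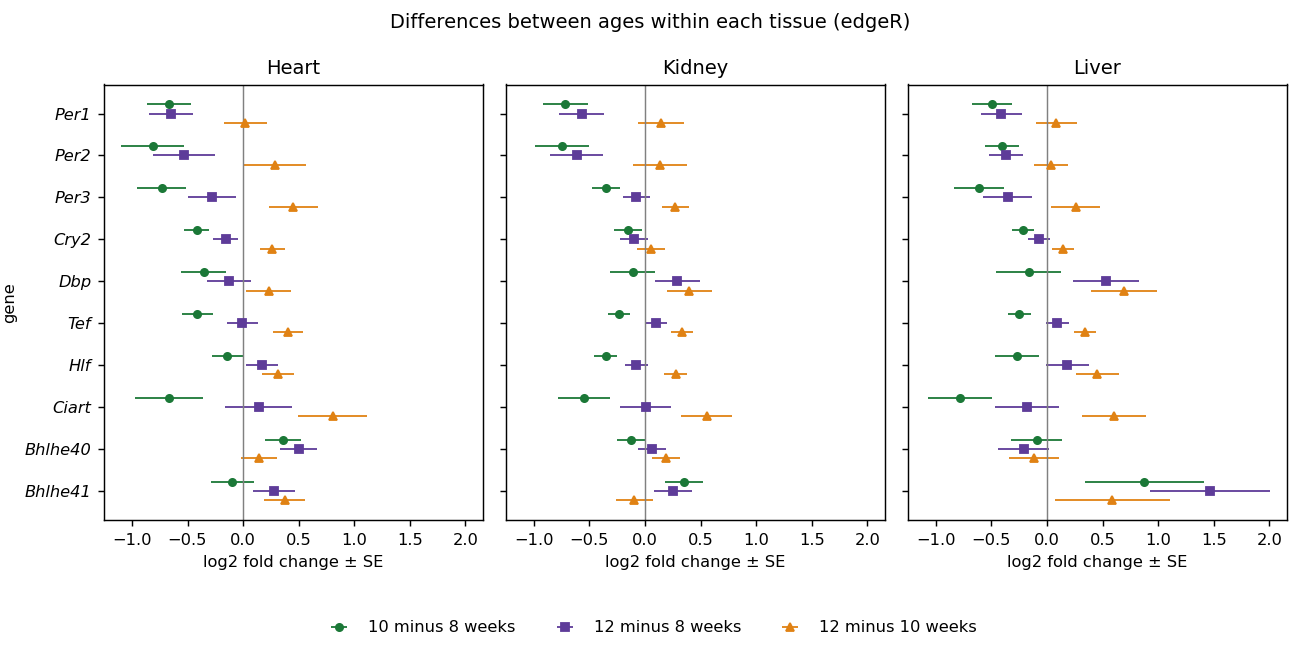
Log2 fold change with its standard error (x axis) for each of the 10 genes (y axis) in heart, kidney and liver, for 10 minus 8 weeks (circles), 12 minus 8 weeks (squares) and 12 minus 10 weeks (triangles), from 4 libraries a group. The circles lie left of 0 for 9 of 10 genes in each tissue, and no difference passed the adjusted threshold.

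These counts turned on single libraries. The share of all genes that passed in each of the fits below is not given here, so the calls do not set the clock genes apart. Without heart 10-week replicate 2, *Per1*, *Per2*, *Per3*, *Cry2* and *Tef* passed for 10 against 8 weeks in heart, *Per1* with a log2 fold change of -0.98 (adjusted p = 0.00127), and without heart 8-week replicate 1 *Per2* passed. Without kidney 10-week replicate 2, *Per1* and *Per2* passed in kidney (adjusted p = 0.0353 and 0.0297). In heart at 12 against 8 weeks *Per1* passed without 10-week replicate 1 or 2 or 12-week replicate 4, *Bhlhe40* without 8-week replicate 1 or 12-week replicate 4 and *Bhlhe41* without 8-week replicate 1.

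None of the 10 genes passed for a difference of the age change between tissues in the 9 interaction tests. Those tests treated the 36 libraries as independent. Of all genes, 0.271%, 2.58% and 0.104% passed for 10 against 8 weeks (kidney against heart, liver against heart and liver against kidney), 0.487%, 9.06% and 1.09% for 12 against 8 weeks and 0.0239%, 2.03% and 1.36% for 12 against 10 weeks. At an unadjusted p under 0.05 were *Bhlhe40* and *Bhlhe41* for liver against heart at 12 against 8 weeks (differences of log2 fold changes -0.72 ± 0.28 and 1.17 ± 0.49 SE, adjusted p = 0.106 and 0.128) and *Bhlhe41* for liver against kidney (1.21 ± 0.52 SE, adjusted p = 0.284). The Period genes, lower at 12 than at 8 weeks by estimate in every tissue, had no interaction p under 0.05 (edgeR). With a block for the shared number within age, *Bhlhe41* passed for liver against heart at 12 against 8 weeks (1.225, edgeR adjusted p = 0.0321).

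Among the clock outputs 3 genes passed between ages. *Gys2*, encoding liver glycogen synthase, fell from 296 to 322 CPM at 8 weeks to 155 to 186 CPM at 10 weeks (log2 fold change -0.87 ± 0.10 SE, adjusted p = 0.00555) and rose to 284 to 360 CPM at 12 weeks (0.98 ± 0.10 SE, adjusted p = 0.00309 against 10 weeks). *Cyp2a5*, an enzyme of xenobiotic metabolism, rose in liver from 10 to 12 weeks (1.22 ± 0.19 SE, adjusted p = 0.0458) and *Por*, the P450 reductase, fell in heart from 8 to 12 weeks (-0.32 ± 0.08 SE, adjusted p = 0.0417). The other tested outputs and these 3 clock partners passed in none of the 9 comparisons by edgeR. *Per1* was lower without overlap from 8 to 12 weeks. In that interval the glucocorticoid-induced genes *Tsc22d3* and *Ddit4* (of 6 tested) fell in heart, *Ddit4* (of 6) in kidney and *Sgk1* (of 7) in liver (adjusted p = 0.0348, 0.0204, 0.0469 and 0.0312). The immediate early genes *Nr4a1* and *Atf3*, of 7 tested, fell in heart (adjusted p = 0.00160 and 0.0310). None of the 7 passed in kidney or liver, where 5 and 6 of their estimates were above 0. Of all genes, 4.56%, 0.0567% and 0.239% passed in heart, kidney and liver. The part of these lists in the *Per1* values was not tested.

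The third comparison placed the genes across tissues. Per exon length, *Tef* was the highest of the 10 in kidney, at 59.2 ± 7.1 CPM per kb (mean ± SD, n = 12), and *Dbp* and *Tef* were nearly level in heart (27.3 ± 6.6 and 25.9 ± 5.2) and in liver (27.0 ± 10.2 and 26.8 ± 3.3), within their spread. In kidney *Hlf* (27.3 ± 3.7) and *Dbp* (24.7 ± 5.9) came next, also within their spread. *Bhlhe40* stood at 22.4 ± 6.0 CPM per kb in liver, 17.7 ± 2.4 in kidney and 8.26 ± 2.0 in heart. Among the Period genes *Per1* led in heart (11.1 ± 3.4) and liver (7.71 ± 1.8), while *Per1* and *Per2* were level in kidney (9.20 ± 2.8 and 9.33 ± 3.2), and *Per3* was lowest of the 3 in each tissue (2.66 to 4.32). *Bhlhe41* had the lowest mean of the 10 in each tissue, in heart within the spread of *Per3* (2.56 ± 0.69 against 2.66 ± 0.83), and was at 0.56 ± 0.11 and 0.57 ± 0.36 in kidney and liver, below all the others there.

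Between tissues 8 of the 10 genes passed in each contrast, where 87.4% (kidney against heart), 88.2% (liver against heart) and 84.7% (liver against kidney) of all genes passed. The count depends on how the tissues are set level: with TMM factors 4 genes were higher and 4 lower in kidney than in heart, 7 and 1 in liver than in heart and 6 and 2 in liver than in kidney, and with library totals alone 5 and 3, 4 and 2, and 3 and 4. Library totals moved the median of all genes to 0.49, -0.23 and -0.74 on the log2 scale in the 3 contrasts, from 0.01, 0.02 and -0.01. *Bhlhe41* was higher in heart under both scalings, with 12.1, 17.1 and 26.4 CPM (lowest, median and highest of 12) in heart, 2.86, 4.07 and 5.55 CPM in kidney and 0.713, 3.84 and 8.38 CPM in liver. Its kidney against heart difference was -2.66 with TMM (adjusted p = 3.767e-14) and -2.18 with totals.

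*Hlf* was higher in kidney than in heart, at 133, 186 and 229 CPM against 31.8, 56.9 and 67.6 CPM, with log2 differences of 1.29 (TMM, adjusted p = 3.324e-14) and 1.77 (totals). *Bhlhe40* was higher in liver than in heart, at 90.6, 148 and 237 CPM against 32.5, 53.3 and 68.0 CPM (1.70 with TMM, adjusted p = 3.765e-15, and 1.45 with totals). Neither pair overlapped, and *Tef* and *Bhlhe41* did not overlap between kidney and heart either. The share of all genes without overlap between tissues was not counted, so the lack of overlap does not set these genes apart. *Cry2* was lower in kidney than in heart (-0.89 and -0.42) and than in liver. *Per1* in liver against kidney turned its direction, at 0.50 with TMM (adjusted p = 0.000728) and -0.24 with totals (adjusted p = 0.0752), as did *Bhlhe41* in that contrast (0.65 and -0.07). *Per2* and *Per3* there went from 0.07 and 0.05 with TMM (adjusted p = 0.696 and 0.704) to -0.66 and -0.68 with totals (adjusted p = 0.000153 and 1.24e-05). *Ciart* in kidney against heart was at -0.19 with TMM and 0.29 with totals, neither past the threshold (adjusted p = 0.333 and 0.143). *Dbp* in liver against heart passed under neither scaling (0.21 and -0.04, adjusted p = 0.192 and 0.836). In bulk tissue, fewer cells of a type and less RNA per cell cannot be told apart.

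**Figure D5:**
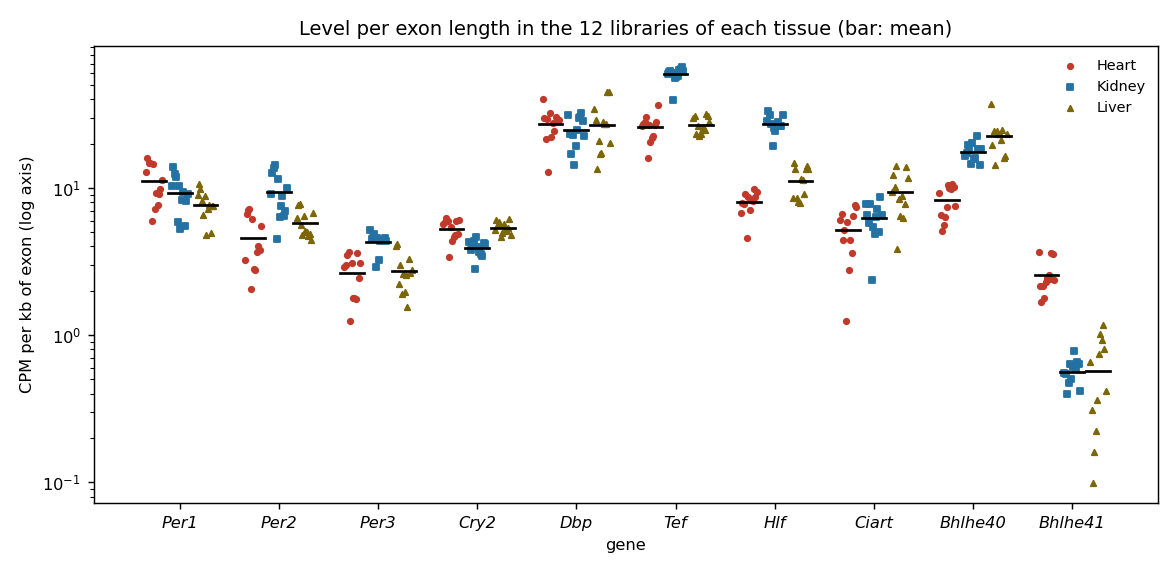
Level per exon length in CPM per kb (y axis, log scale) of each gene (x axis) in the 12 libraries of heart (circles), kidney (squares) and liver (triangles), with black bars at the means. *Tef* and *Hlf* stand highest in kidney (means 59.2 and 27.3) and *Bhlhe41* in heart (2.56).

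On GRCm39 the 10 genes lie on 8 chromosomes, with *Per1* (68986035-69002300) and *Hlf* (90227221-90281761) both on chromosome 11 and *Bhlhe40* (108636626-108644502) and *Bhlhe41* (145803969-145811430) both on chromosome 6. Each of them overlaps another annotated gene, among them *Sphk2* on the opposite strand at *Dbp*, *Uts2* at *Per3* and *Mmd* at *Hlf*. The counts used here do not separate strands. Where exons of such partners coincide with those of the clock genes, STAR gene counts assign read pairs to neither gene. Levels of the clock genes can therefore be too low there.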

How the data were processed

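RNA of 3 organs (heart, kidney, liver) from male mice was sequenced as paired reads. Per the labels and the methods of the study, the authors trimmed reads with cutadapt (4.2), checked them with FastQC (0.11.9) and aligned them with STAR (2.7.11b) to GRCm39 with Ensembl annotation. The deposited files hold raw STAR counts per gene, and the column of counts without regard to strand was used. The total was 21031599 to 33637390 counted read pairs per library; rows for unmapped, multimapping and unassigned reads were left out of library sizes and tests. CPM are counts per 1000000 of that total, and CPM per kb divides them by the merged exon length.

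Genes were kept where, in at least 1 age group of a tissue, the mean was 10 counts or more and 2 or more libraries had any count; this left 15137, 17649 and 14672 genes in heart, kidney and liver and 12537 in all 3. Differences were tested with edgeR (4.0.16), TMM factors and the quasi-likelihood F-test, with Benjamini-Hochberg adjustment over all genes kept and a threshold of 0.05. Ages were fitted within a tissue. Tissues, their age changes and a shared library number within age were fitted over all 36 libraries. The fits of tissues and of their age changes held no term for the number and treated libraries as independent. P-values set a difference against the spread that a fit leaves between these libraries. In the age fits that was the spread between libraries of the same tissue and age. In the shared-number fit it was what remained after the tissue, age and number terms.

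Correlations used deviations of log2(CPM + 0.5) from the age mean, with exact two-sided permutation of numbers within ages (13824 permutations). Genes like *Dbp* and *Per1* were the 10 highest and 5 lowest by r, of which the leading ones are named. Alternatives were limma-voom (limma 3.58.1), DESeq2 (1.42.0), RLE factors, no count filter, only 2 ages or 2 tissues, a replicate block, leaving out libraries and, chosen after seeing the data, scaling by library totals. Tests were checked on simulated counts. Exon lengths, overlaps and symbols came from GENCODE on GRCm39 (78168 of 78239 features had a symbol). The genes and lists were chosen with earlier results of these data known. A gene of the clock partner list is not reported here.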

Additional observations from a re-analysis of the deposited data

Results flagged for a closer look

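In 4 of 90 groups of 4 libraries, 1 library lay far from the other 3 by the gap to its neighbour over the range of the group (Dixon's 95% criterion), where chance flags about 1 in 20 groups. *Per1* in liver at 12 weeks was at 38.1 CPM in replicate 2, below the others at 57.5 to 58.2 CPM. *Per2* in heart at 8 weeks was at 21.2 CPM in replicate 1, below 43.7 to 46.9 CPM. *Tef* in kidney at 10 weeks was at 324 CPM in replicate 1, below 464 to 474 CPM. *Hlf* in liver at 12 weeks was at 62.6 CPM in replicate 1, below 92.9 to 97.7 CPM. *Per1* in kidney was also lowest in 12-week replicate 2 (42.04 CPM) and *Per2* in kidney in 8-week replicate 1 (59.8 CPM).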

How the results depend on the processing

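The count of clock genes called for a shared number was 4 with edgeR, limma-voom, RLE factors and library totals (a scaling chosen after seeing the data), 7 with DESeq2, 9 without the count filter, 3 with kidney and heart alone, 1 with liver and heart alone and 1 with liver and kidney alone, and between 2 and 4 when 1 library number was left out. All genes called went from 115 to 447 with DESeq2, 1978 without the filter, and 89, 31 and 36 with those pairs of tissues.

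Between ages, 0 clock genes were called in all 9 comparisons by edgeR, limma-voom, RLE factors and library totals. DESeq2 gave 1 each at 10-8 and 12-8 weeks (heart), 10-8 and 12-10 weeks (kidney) and 12-10 weeks (liver). Without the count filter heart gave 8, 3 and 3, kidney 6, 2 and 5 and liver 0, 1 and 0 (10-8, 12-8 and 12-10 weeks); the cause was not tested. Fitting only 2 ages gave 1 in heart at 12-8. Leaving out libraries gave 0 to 5 (heart, 10-8), 0 to 2 (heart, 12-8) and 0 to 2 (kidney, 10-8). The shares of all genes called with a library left out are not given here. All genes called at 10-8, 12-8 and 12-10 weeks were 161, 691 and 6 for heart, 164, 10 and 85 for kidney and 3, 35 and 8 for liver by edgeR. By DESeq2 they were 366, 1245 and 54, then 664, 130 and 657, then 356, 423 and 486. Without the filter they were 798, 1133 and 308, then 1005, 513 and 938, then 350, 330 and 271.

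For differences of the age change the count of 0 became 1 (liver against heart, 10-8), 3 (liver against heart, 12-8) and 1 (liver against kidney, 12-8) without the filter, and 0 to 1 (liver against heart, 12-8) when 1 number was left out. Totals of clock genes called between tissues stayed within 1.5 times the reported 8, but with library totals those higher went from 7 to 4 (liver against heart) and 6 to 3 (liver against kidney), and those lower from 1 to 2 and 2 to 4. With library totals 6 log2 differences between tissues changed sign, those of *Per1* (-0.24), *Bhlhe41* (-0.07), *Per2* (-0.66) and *Per3* (-0.68) in liver against kidney, *Ciart* in kidney against heart (0.29) and *Dbp* in liver against heart (-0.04), and r of *Tef* between heart and kidney ranged from -0.23 (without 10-week replicate 1) to 0.78 when 1 number was left out. No correlation count changed under another pseudocount, TMM scaling, no filter or leaving out a number.

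The numbers were checked for pairing over all genes. Same-numbered libraries of different tissues had correlations of deviations from -0.04 to 0.29, 21 of 36 above 0.1, which does not meet the rule of every pair above 0.1. Each library was also set against the 4 libraries of its age in the other tissue. Of 36 comparisons, 27 were best with the own number (9 of 12 for heart and kidney, 6 of 12 for heart and liver, 12 of 12 for kidney and liver). The replicate block differed between fits. Over all 36 libraries it was the number within age, and 1 clock gene (*Bhlhe41*) was called for liver against heart at 12-8 weeks. Within a tissue it was replicates 1 to 4 across ages, and 3 clock genes (*Per1*, *Per3* and *Cry2*) were called in heart at 10-8 and 1 (*Per1*) in heart at 12-8. Between ages within a tissue equal numbers are different animals, so that block pairs unrelated libraries and nothing is drawn from its calls. Groups of 4 libraries limit precision, and *Bhlhe41* in liver rested on as few as 15 counts.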
